A study of Mus musculus with 21 samples.

Results

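Vegfa, Adm, Bnip3, Egln3, Ankrd37, Ddit4, Pdk1, Ndrg1 and Slc2a1 are genes whose transcription is known to rise when oxygen is scarce. They were chosen by gene symbol, with 1 entry each in all 3 deposited expression tables, and make up 9 of 42760 entries in the tables of the Peril and Fendrr strains and 9 of 40770 in that of the linc-Brn1b strain. The study sequenced RNA from mice in which a long intergenic noncoding RNA (lincRNA) gene had been deleted, and compared them with wild-type mice of the same strain. Of 10 groups with 21 libraries in all, each has 1 pooled value per gene in FPKM (sequenced fragments scaled by transcript length and by the size of the library), so no value per animal or standard deviation could be given, and no test was run here.

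The groups were wild-type and Peril-/- whole brain of E18.5 (E, embryonic day), wild-type and Fendrr-/- lung of E14.5, and, in the linc-Brn1b strain, both genotypes for the E13.5 telencephalon, the E15.5 telencephalon and the brain of postnatal day 7 (P7). The labels write the Peril genotypes as linc-Sox2+/+ and linc-Sox2-/-, and the Fendrr genotypes as linc-Foxf1a+/+ and linc-Foxf1a-/-. Each group had 2 libraries, except linc-Brn1b-/- at E15.5, for which the labels list 3. The study states 2 for that group as well, and the pooled value does not show how many libraries entered it. In every knockout strain a lacZ reporter cassette carrying a neomycin resistance gene took the place of the lincRNA gene, the embryonic stem cells came from the hybrid line VGF1, and the mice were crossed back to C57BL/6J a single time. The tissues were taken whole, so each value mixes all their cell types, and fewer cells of a type and less RNA per cell cannot be told apart.

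In cells with enough oxygen, prolyl hydroxylases modify the HIF alpha subunits, the VHL protein binds them, and they are degraded. When oxygen falls the alpha subunits persist, pair with ARNT or ARNT2, and bind promoters and enhancers with a short core sequence, the hypoxia response element. The genes this turns on bring in blood vessels, raise glucose uptake and glycolysis, hold back mitochondrial respiration and dampen growth signalling, and they are active in normal embryos, where many tissues develop at low oxygen.

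Tissue markers followed the labels, although not every listed lung marker was confined to lung. The lung marker Sftpc was at 819 FPKM in wild-type lung and at most 0.247 FPKM in the 8 brain groups. All 5 lung markers summed to 994 FPKM in wild-type lung and 52.2 FPKM in wild-type E13.5 telencephalon. The 5 neuron markers summed to at least 1211 FPKM in the brain groups and at most 20.4 FPKM in lung. The targeted locus was at 38.4 FPKM in wild-type and 0.0450 FPKM in Fendrr-/- lung (entry linc-Cox4nb-4), while linc-Brn1b was between 0.799 and 2.50 FPKM in wild type and is listed at 0 in linc-Brn1b-/- at all 3 ages. For the Peril strain the overlapping entry, linc-Atp11b-4, went against the label, and was higher in the libraries labelled Peril-/- (4.65 FPKM) than in wild type (0.0109 FPKM). The share of Peril that this entry covers was not measured. The study's own check of the deletion, by RT-PCR, ran the way the labels say. Neither an exchange of labels nor any other cause of the reversed level was tested here. In all 5 comparisons the summed level of 4 Y-linked genes was at most 0.0357 FPKM in 1 genotype and at least 21.0 FPKM in the other, so the sex of the animals and the genotype cannot be told apart in any result below.

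In the mm9 assembly the 9 genes, all protein coding, lie at chr17:46153942-46169326 (Vegfa, minus strand), chr7:117771175-117773331 (Adm, plus), chr7:146082519-146101202 (Bnip3, minus), chr12:55279968-55304847 (Egln3, minus), chr8:47082256-47085221 (Ankrd37, minus), chr10:59412423-59414518 (Ddit4, minus), chr2:71711281-71741915 (Pdk1, plus), chr15:66760883-66801202 (Ndrg1, minus) and chr4:118781316-118809935 (Slc2a1, plus). Vegfa, Egln3, Ddit4, Pdk1, Ndrg1 and Slc2a1 share their locus in at least 1 table with a lincRNA entry, and Ankrd37 with Lrp2bp. The library kit is not described as keeping strand, so reads of overlapping genes could not be separated by strand; the highest level of any of these overlapping entries was 1.16 FPKM, for the antisense entry at Vegfa in lung.

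The hypoxia response element is written with the core ACGTG or GCGTG, and the promoters were searched for it because it is the feature HIF reads. RefSeq promoter sequences on GRCm38.p6, each with 250 bases before and 50 after a start site, were matched by symbol for 8 of the 9 genes, all but Ndrg1, giving 10 sequences because Vegfa and Pdk1 have 2 starts each. On either strand, ACGTG occurred in 6 of the 10 sequences, against 19.6% of all 32851 promoter sequences, and ACGTG or GCGTG in 8 of the 10, against 43.8% of all. The windows below show each ACGTG match before a start site with up to 12 bases on each side, 5′ to 3′ on the gene's own strand, with the match in capitals and the position of its first base. In Bnip3 the match is also the E-box CACGTG, which occurred in 7.15% of all promoter sequences and is read by other factors, and at the second Vegfa start the capitals spell the core on the opposite strand.
Slc2a1, position -36 from the start, chr4:119108697-119108725, plus strand: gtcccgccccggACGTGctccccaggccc
Bnip3, position -108 from the start, chr7:138909597-138909626, minus strand: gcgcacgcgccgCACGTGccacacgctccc
Ddit4, position -187 from the start, chr10:59951941-59951969, minus strand: agaacgttgcgaACGTGcgcccggtgcct
Ankrd37, position -6 from the start, chr8:45999851-45999868, minus strand: cagtgtttgggtACGTGa
Ankrd37, position -241 from the start, chr8:46000075-46000100, minus strand: cccagcagtACGTGcctagctcggct
Egln3, position -229 from the start, chr12:54204087-54204115, minus strand: tgtgcatctcagACGTGagatccaggttt
Vegfa, position -211 from the second start, chr17:46025358-46025386, minus strand: ggagtgcgtgccCACGTcagagagcaaca
These letters are a description of the promoters and not evidence of binding. The sequences with ACGTG had a GC content of 54.7% to 71.7%, and the shares over all promoters were not matched for it. The promoter of Adm and that of the first Pdk1 start held 2 GCGTG matches each and no ACGTG, and those of the first Vegfa start and the second Pdk1 start held neither.

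Differences are given as knockout minus wild type on the scale log2(FPKM + 1), which understates changes of low genes such as Adm. A gene was compared where at least 1 of both groups had 1 FPKM or more, and a difference of 1.5-fold on that scale was counted. With 1 pooled value per group, the scale for a difference was the central 90% of the differences of all genes whose mean level lay within 2-fold of the gene's own, called its like-level range, outside which 10% of genes lie by construction. Over the 5 genotype comparisons, 1 of the 45 values of the 9 genes was past 1.5-fold and 10 (22.2%) were outside their like-level range. These 45 values are not independent of each other.

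**Figure D1:**
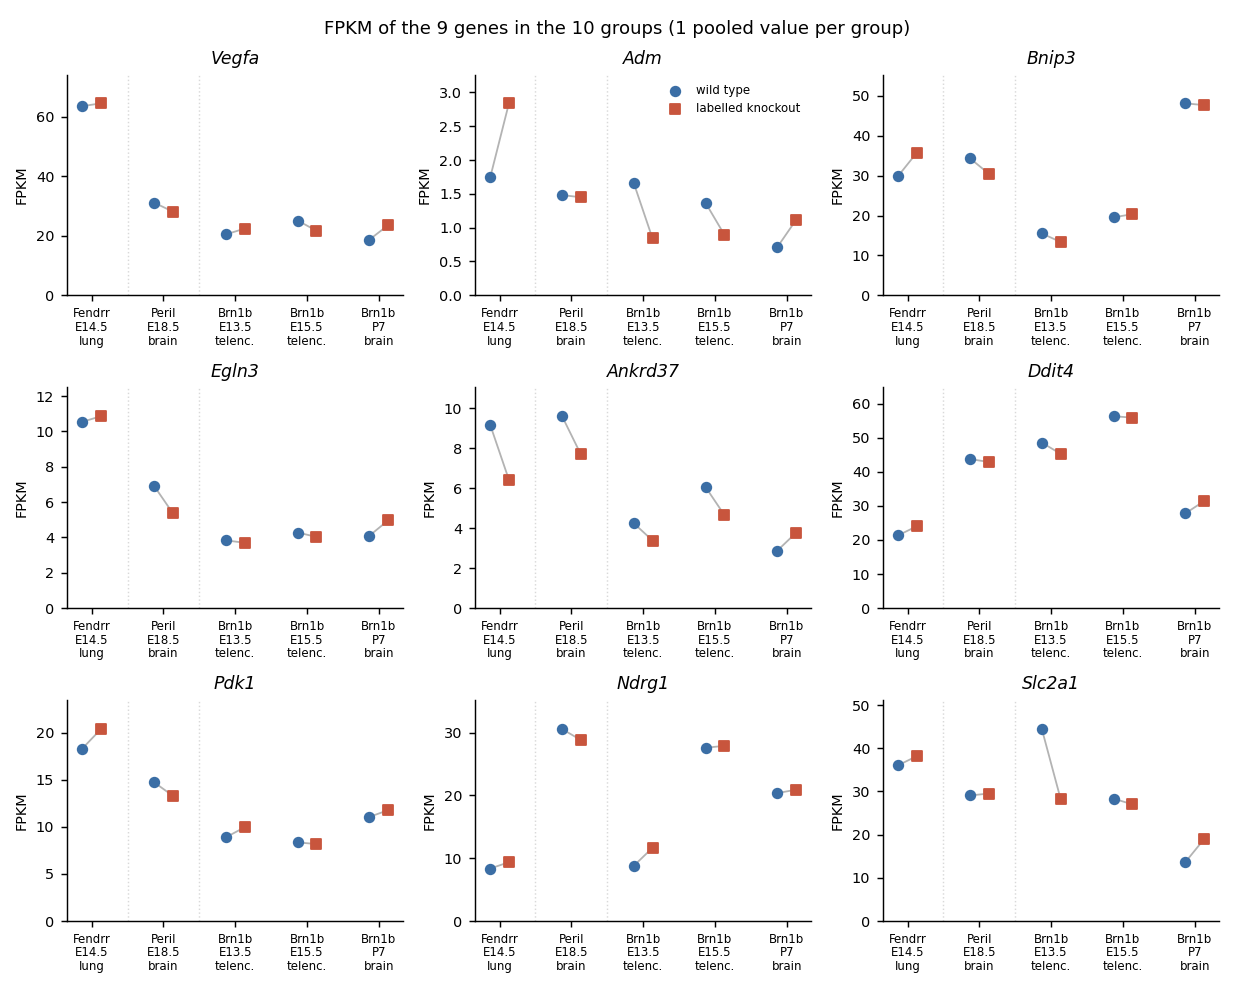
FPKM of each of the 9 genes (vertical axes start at 0) in the wild-type (circles) and knockout-labelled (squares) group of each tissue and age, 1 pooled value per group, with dotted lines between tables that were normalized separately. Side by side, Vegfa was highest in lung (63.5 and 64.5 FPKM), Bnip3 in P7 brain (48.1 and 47.7 FPKM), and Slc2a1 in wild-type E13.5 telencephalon (44.4 FPKM, against 28.4 FPKM in knockout).

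Vegfa encodes the growth factor that draws blood vessels into a tissue. It was at 63.5 FPKM in wild-type and 64.5 FPKM in Fendrr-/- lung, and at 31.1 and 28.1 FPKM in wild-type and Peril-/- labelled brain. In the linc-Brn1b strain it was at 20.5 and 22.4 FPKM at E13.5, 25.1 and 21.7 FPKM at E15.5, and 18.7 and 23.6 FPKM at P7, in wild type and knockout respectively. Set side by side, both lung values were above all 8 brain values, but each table was normalized separately, so here and below the order of levels from different tables is a description only. The genotype difference in lung was 0.02 (log2 scale), inside the like-level range. At E15.5 Vegfa was lower in linc-Brn1b-/- by 0.20, outside its like-level range of -0.09 to 0.11, whereas at P7 it was higher by 0.32, inside a range of -0.34 to 0.41. The difference thus had opposite signs at E15.5 and P7, and the smaller of these values was the one outside its range.

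Adm encodes adrenomedullin, a secreted peptide that widens vessels and acts on their endothelium. It was the lowest of the 9 genes in every group, between 0.715 FPKM in wild-type P7 brain and 2.84 FPKM in Fendrr-/- lung. In lung it was at 1.75 FPKM with the Fendrr gene and 2.84 FPKM without it, which is 163% of wild type and a difference of 0.48, above the like-level range of -0.38 to 0.41. In the linc-Brn1b strain it was lower in knockout at E13.5 (1.66 and 0.840 FPKM, 50.8% of wild type) and at E15.5 (1.36 and 0.897 FPKM, 65.7%). The differences of -0.53 and -0.32 lay below the like-level ranges, at E13.5 only just (lower end -0.53). At P7 Adm was higher in knockout, with 0.715 and 1.12 FPKM, and in the Peril strain it was at 1.48 and 1.45 FPKM. Adm thus had 3 of its 5 genotype differences outside the like-level range, with both signs among them, all at levels of a few FPKM or less.

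The receptors of both ligands were read beside them from a list of 8 genes. Kdr, the main signalling receptor of VEGF-A, was at 34.8 FPKM in wild-type lung and between 7.04 and 12.8 FPKM in the brain groups. In Fendrr-/- lung Calcrl, the adrenomedullin receptor, was at 9.77 FPKM against 14.6 FPKM in wild type (difference -0.54) and Kdr at 29.0 against 34.8 FPKM, so the level of Adm was higher and that of its receptor lower in the same samples. In linc-Brn1b-/- at E13.5 Ramp2, a partner of the adrenomedullin receptor, was at 7.88 FPKM or 60.7% of wild type, a difference of -0.66 and the only value of the 8 receptors past 1.5-fold in any genotype comparison. In the Peril-/- labelled brains Ramp2 was at 16.7 against 24.3 FPKM and Flt1, which binds VEGF-A as a decoy, at 5.45 against 7.11 FPKM. Some of these receptors are known from endothelial cells, whose summed marker level is given below beside each comparison. The lists did not always move together. In linc-Brn1b-/- P7 brain the receptors summed to 112% of wild type with 5 of 8 higher, and endothelial markers to 99.6% with 3 of 10 higher.

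Egln3 encodes a prolyl hydroxylase that marks HIF for destruction and is itself a HIF target. It was at 10.5 and 10.9 FPKM in wild-type and knockout lung, and at 6.92 and 5.38 FPKM in wild-type and Peril-/- labelled brain. In the linc-Brn1b strain its 6 values ranged from 3.70 to 4.97 FPKM. Side by side the lung values were the highest and the 6 values of the linc-Brn1b strain the lowest. The Peril strain difference of -0.31 was just below the like-level range, whose lower end was -0.30, and the other 4 differences of Egln3 were between -0.07 and 0.23 and inside.

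The rest of the HIF machinery was read as levels, from a list of 10 genes. Hif1a, the broadly expressed alpha subunit, was between 31.5 and 55.6 FPKM in all 10 groups, and Hif3a, an alpha subunit known as an inhibitor of the others, was at 21.7 FPKM in wild-type lung and 0.826 FPKM in wild-type P7 brain. None of the 10 genes was past 1.5-fold in any of the 5 genotype comparisons. The largest differences were -0.36 for Epas1, which encodes HIF2A, in Fendrr-/- lung (12.4 to 9.42 FPKM), and 0.38 for Egln2, another prolyl hydroxylase, at P7 in linc-Brn1b-/- (23.9 to 31.5 FPKM). Hif1a differed by less at each of these, being at 44.3 and 46.1 FPKM in lung. Its protein is regulated by degradation, so its RNA level does not measure HIF activity.

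Slc2a1 encodes GLUT1, the glucose transporter of the blood-brain barrier and of many growing cells. It was at 44.4 FPKM in wild-type and 28.4 FPKM in linc-Brn1b-/- telencephalon at E13.5, at 28.3 and 27.0 FPKM at E15.5, and at 13.7 and 19.0 FPKM in P7 brain. The wild-type value at E13.5 was the highest of these 6 and the wild-type value at P7 the lowest, while the knockout values were closer together. At E13.5 the difference was -0.63, or 63.8% of wild type, the single value of the 9 genes past 1.5-fold in a genotype comparison. It was inside the like-level range of -0.65 to 0.35, close to its lower end: 5.27% of the 3909 genes of like level were lower still. At P7 the difference was 0.45, above the like-level range of -0.35 to 0.42. In lung (36.1 and 38.2 FPKM) and in the Peril strain (29.1 and 29.5 FPKM) the genotypes were close.

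Pdk1 encodes a kinase that shuts the pyruvate dehydrogenase complex and so holds back mitochondrial use of pyruvate. Its levels were 18.3 and 20.4 FPKM in wild-type and knockout lung, 14.7 and 13.3 FPKM in the Peril strain, 8.89 and 9.95 FPKM at E13.5, 8.35 and 8.18 FPKM at E15.5 and 11.1 and 11.8 FPKM at P7. All 5 differences were between -0.14 and 0.15 and inside their like-level ranges. The other kinases of the family were listed too, of which Pdk3 was at 5.54 against 7.97 FPKM in the Peril-/- labelled brains (-0.46) and Pdk4 at 1.91 against 3.28 FPKM in linc-Brn1b-/- P7 brain (-0.56).

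Bnip3 encodes a mitochondrial protein that marks mitochondria for removal. It was at 29.9 and 35.8 FPKM in wild-type and Fendrr-/- lung, a difference of 0.25 and above the like-level range of -0.18 to 0.20. In the Peril strain it was at 34.3 and 30.5 FPKM (-0.17), inside. In the linc-Brn1b strain it was at 13.4 FPKM in knockout at E13.5, or 86.3% of wild type, at 19.5 and 20.3 FPKM at E15.5, and at 48.1 and 47.7 FPKM at P7. The values differed more between stages than between genotypes. Y-linked RNA also changed between E13.5 and E15.5, and the dissected tissue between E15.5 and P7, so age cannot be singled out.

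Ddit4 encodes REDD1, which turns down mTORC1 growth signalling and also responds to ATF4 and glucocorticoids. It was the highest of the 9 genes in each linc-Brn1b group of E13.5 and E15.5, at 48.6 and 45.3 FPKM at E13.5 and 56.3 and 55.9 FPKM at E15.5. At P7 it was at 27.8 and 31.4 FPKM, in the Peril strain at 43.7 and 42.9 FPKM, and in lung at 21.4 and 24.0 FPKM. All 5 differences, from -0.10 to 0.17, were inside the like-level ranges. Of 10 genes of the ATF4 stress response, which can raise Ddit4 without hypoxia, Slc7a11, the cystine transporter subunit, was at 9.68 against 2.02 FPKM in linc-Brn1b-/- at E13.5 (1.82) and at 14.4 against 8.47 FPKM at P7 (0.70), and was the only one past 1.5-fold in any genotype comparison.

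Ndrg1 encodes a protein tied to differentiation and to myelinating glia. It was at 8.80 and 11.7 FPKM in wild type and linc-Brn1b-/- at E13.5, at 27.6 and 27.9 FPKM at E15.5 and at 20.4 and 20.9 FPKM at P7. In lung it was at 8.36 and 9.37 FPKM, and in the Peril strain at 30.6 and 28.8 FPKM. The E13.5 difference of 0.37 was its largest and was inside the like-level range of -0.48 to 0.42. Within the linc-Brn1b strain both E13.5 values were below the other 4.

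Ankrd37, an ankyrin repeat gene known as a direct HIF target, was lower in the libraries labelled knockout in 4 of the 5 comparisons, in which between 41% and 49.2% of all genes were lower. One of the 4 is the Peril strain, where the entry at the targeted locus goes against the label, and without that strain it was lower in 3 of 4. It was at 9.15 and 6.41 FPKM in wild-type and Fendrr-/- lung, at 9.59 and 7.70 FPKM in the Peril strain, at 4.24 and 3.38 FPKM at E13.5 and at 6.04 and 4.66 FPKM at E15.5. The knockout was thus at 70.1%, 79.7% and 77.1% of wild type in lung, at E13.5 and at E15.5, and the libraries labelled Peril-/- were at 80.2%. The differences of -0.45 in lung, -0.28 in the Peril strain and -0.32 at E15.5 were below the like-level ranges, whose lower ends were -0.26, -0.27 and -0.15, and that of -0.26 at E13.5 was inside. At P7 the sign turned, with 3.77 FPKM in knockout and 2.88 FPKM in wild type. Ankrd37 thus went the opposite way to most of the 9 genes in lung and at P7 went with them.

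The closest relatives of the 9 genes, a list of 13 with the other Pdk, Ndrg and VEGF family genes, held no difference past 1.5-fold in any genotype comparison. That count is on the log2(FPKM + 1) scale, which understates changes of low genes such as Ddit4l and Pdk4. Of the relatives compared, 4 were higher and 7 lower in the Peril strain, 9 and 3 in lung, 6 and 4 at E13.5, 7 and 3 at E15.5, and 6 and 6 at P7. Ddit4l, which like Ddit4 dampens mTORC1 signalling, was at 0.994 against 1.74 FPKM in the Peril-/- labelled brains and at 1.32 against 2.41 FPKM in linc-Brn1b-/- at E13.5, differences of -0.46 and -0.55 beside -0.03 and -0.10 for Ddit4 itself. Ndrg4, a neuronal relative of Ndrg1, was at 409 against 312 FPKM in linc-Brn1b-/- P7 brain, while Ndrg1 was nearly the same in both genotypes. Pgf, placental growth factor, was at 1.59 against 2.28 FPKM at E13.5, where Vegfa was slightly higher in knockout.

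**Figure D2:**
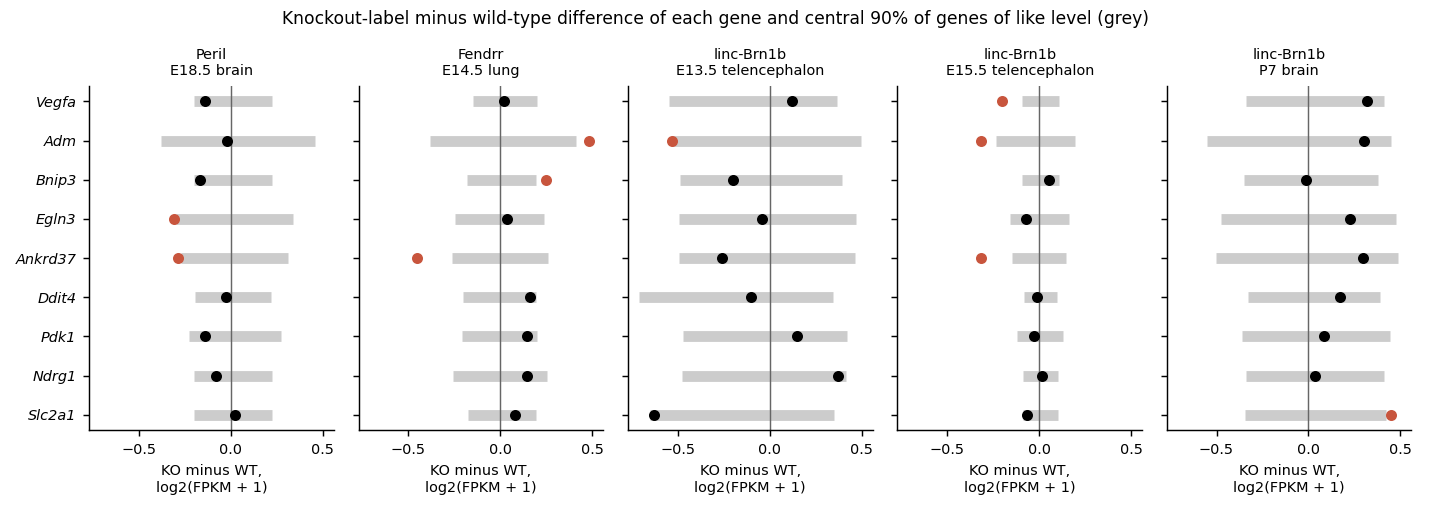
Difference of log2(FPKM + 1), knockout label minus wild type (horizontal axis), of each of the 9 genes in the 5 genotype comparisons, with grey bars for the central 90% of genes of like level and red points for values outside them. The 10 red points include Ankrd37 in 3 panels and Adm in 3, and the bars are narrowest at E15.5 and widest at E13.5 and P7.

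In E18.5 brain of the Peril strain 8 of the 9 genes were lower in the libraries labelled Peril-/-, against 49.2% of the 14729 genes compared. None was past 1.5-fold, where 1.12% of all genes were higher and 0.855% lower by that much. The median difference of the 9 was -0.14, against 0.00 for all genes compared, and the largest were those of Egln3 and Ankrd37. Of 28 other HIF targets compared, 18 were lower, with a median of -0.11, and the largest differences were those of P4ha1, a collagen prolyl hydroxylase (10.8 to 7.24 FPKM), and Ak4, a mitochondrial adenylate kinase (5.01 to 3.75 FPKM). Moving with them, all 10 endothelial markers were lower, their sum at 85.8% of wild type, the erythroid sum was at 60.1% (2 of 2 compared lower) and the choroid plexus sum at 69.0% (5 of 5), while the neuron sum was at 104%. The part of these cell types in the lower values of the 9 genes was not tested.

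In E14.5 lung of the Fendrr strain 8 of the 9 genes were higher in knockout, so 1 was lower, where 48.8% of the 14265 genes compared were. None was past 1.5-fold (1.52% of all genes higher, 0.967% lower), and the median difference was 0.15 against 0.00 for all genes. Adm and Bnip3 were above and Ankrd37 below the like-level range. Of 29 other HIF targets compared, 17 were higher and 12 lower with a median of 0.04, led by Slc16a3, the lactate exporter MCT4 (13.6 to 19.0 FPKM). In the same samples all 8 cardiac markers were higher and 7 of them past 1.5-fold, their sum at 303% of wild type, with Nppa, the atrial natriuretic peptide, at 54.2 FPKM in knockout and 1.77 FPKM in wild type. Endothelial markers were lower in 8 of 10, their sum at 83.7%, and the erythroid sum was at 55.3% (4 of 4 lower). The part of cardiac tissue in the higher values of the 9 genes was not tested.

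In E13.5 telencephalon of the linc-Brn1b strain 6 of the 9 genes were lower in knockout, where 41% of the 13822 genes compared were lower. Slc2a1 alone was past 1.5-fold, and 5.59% of all genes were lower and 1.64% higher by that much. The median difference was -0.10 against 0.06 for all genes. Like-level ranges were computed for the 9 genes only, and that of Ddit4 reached down to -0.71 here. Of 28 other HIF targets compared, 4 were lower past 1.5-fold and none higher, with a median of -0.02 and their sum at 82.7% of wild type: Ldha, the lactate dehydrogenase of glycolysis, was at 255 and 156 FPKM in wild type and knockout, Fam162a at 57.8 and 34.3 FPKM, Slc16a3 at 3.24 and 1.71 FPKM, and Lox was the other. All 10 endothelial markers were lower too, their sum at 66.9% of wild type. The erythroid sum was at 38.1%, with Hbb-b1 at 34.8 against 106 FPKM. Of 3 erythroid markers compared, 1 was higher and 2 lower, only 1 of them past 1.5-fold, with a median difference of -0.06. The FPKM summed over all entries of the table was at 87.9% of wild type in knockout. Whether these values have a part in that of Slc2a1, a transporter that brain endothelial cells are known to carry, was not tested.

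In E15.5 telencephalon 7 of the 9 genes were lower in linc-Brn1b-/-, where 46.6% of the 13657 genes compared were. None was past 1.5-fold (0.242% of all genes higher, 0.322% lower), and the median was -0.07 against 0.01 for all genes. Vegfa, Adm and Ankrd37 were below their like-level ranges, which were the narrowest of the 5 comparisons, and 0.756% of the genes of like level were lower than Vegfa. Of 27 other HIF targets compared, 14 were lower, with a median of -0.01 and Car12, a carbonic anhydrase, past 1.5-fold (1.88 to 0.721 FPKM). The endothelial sum was at 104% of wild type and the erythroid sum at 90.7%. The choroid plexus sum was at 2.36% of wild type, with Ttr at 1.39 against 231 FPKM, and its part in the lower Vegfa, which choroid plexus is known to express, was not tested.

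In P7 brain 8 of the 9 genes were higher in linc-Brn1b-/- and Bnip3 alone was lower, by 0.01, where 48% of the 14521 genes compared were lower. None was past 1.5-fold (2.16% of all genes higher, 2.42% lower), and the median difference was 0.23 against 0.01 for all genes. Slc2a1 was above its like-level range and the other 8 were inside. Of 27 other HIF targets compared, 13 were higher and 14 lower, with a median of -0.04, so the sign that 8 of the 9 genes shared was not that of the wider list. All 8 oligodendrocyte markers were lower and 6 of them past 1.5-fold, their sum at 59.0% of wild type, and the astrocyte and choroid plexus sums were at 77.5% and 68.3%. The endothelial sum was at 99.6% of wild type, with 7 of 10 markers lower. The part of the glial cells in the higher values was not tested.

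**Figure D3:**
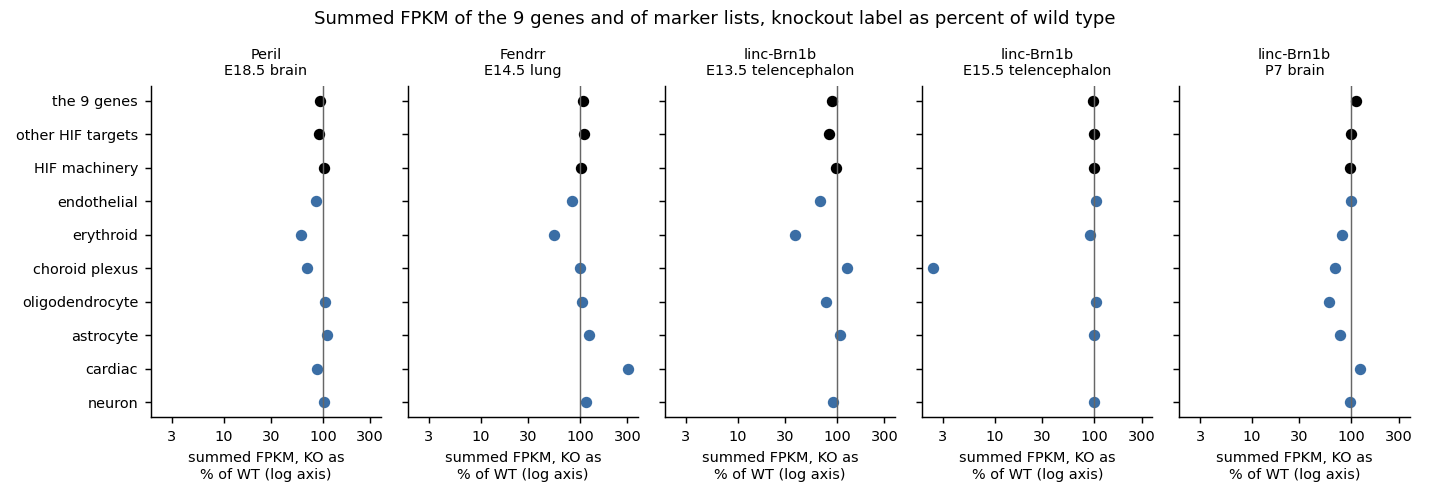
Summed FPKM of each gene list in the knockout-labelled group as a percentage of wild type (log axis), in the 5 genotype comparisons, for lists with at least 2 genes compared. The 9 genes lay between 88.8% and 111% of wild type, while cardiac markers were at 303% in Fendrr-/- lung, choroid plexus markers at 2.36% at E15.5 and oligodendrocyte markers at 59.0% at P7.

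Ages of the linc-Brn1b strain were compared within each genotype. Between E13.5 and E15.5 the summed level of the Y-linked genes changed from 49.2 to 0.00662 FPKM in wild type. In knockout it changed from 0.0133 to 21.0 FPKM, so age and sex cannot be told apart at this step in either genotype. From E13.5 to E15.5 Ndrg1 was higher by 1.55 in wild type and 1.19 in knockout, to 27.6 and 27.9 FPKM, and was the only 1 of the 9 higher past 1.5-fold in either genotype, although Bnip3 in knockout came close at 0.57. Of all genes compared, 8.72% were higher by that much in wild type and 10.4% in knockout, and 99.6% and 99.0% of genes of like level, respectively, were below Ndrg1. Slc2a1 was lower by 0.63 in wild type, where 8.27% of all genes were lower past 1.5-fold, and by 0.07 in knockout, where 7.84% were. The wild-type E13.5 group with its Slc2a1 level of 44.4 FPKM enters both this age comparison and the genotype comparison at E13.5, as the other groups do at their ages, so these are not separate observations. Adm was below 1 FPKM in both knockout groups and was left out of the knockout comparison, which therefore held 8 of the 9 genes.

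From E15.5 telencephalon to P7 whole brain the dissected tissue differed as well as the age, and the contribution of each cannot be told apart. Bnip3 was higher by 1.26 in wild type and 1.19 in knockout, to 48.1 and 47.7 FPKM, the only 1 of the 9 higher past 1.5-fold in each genotype, where 24.7% and 25.6% of all genes were. In wild type Slc2a1 (13.7 FPKM, 48.2% of its E15.5 level), Ddit4 (lower by 0.99) and Ankrd37 (lower by 0.86) were lower past 1.5-fold, where 26.8% of all genes were lower by that much. In knockout Ddit4 alone was, by 0.81, where 26.9% were, and Slc2a1 and Ankrd37 were lower by 0.49 and 0.25. All of these differences were inside the like-level ranges, which at this step reached from -1.51 to 1.71 for wild-type Slc2a1. Oligodendrocyte and astrocyte markers summed to 615 and 398 FPKM in wild-type P7 brain and 19.4 and 50.4 FPKM in wild-type E15.5 telencephalon, and their part in the age differences was not tested. The 28 other HIF targets compared were also divided at this step, with 7 higher and 6 lower past 1.5-fold in wild type, and with 2 higher and 5 lower from E13.5 to E15.5.

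**Figure D4:**
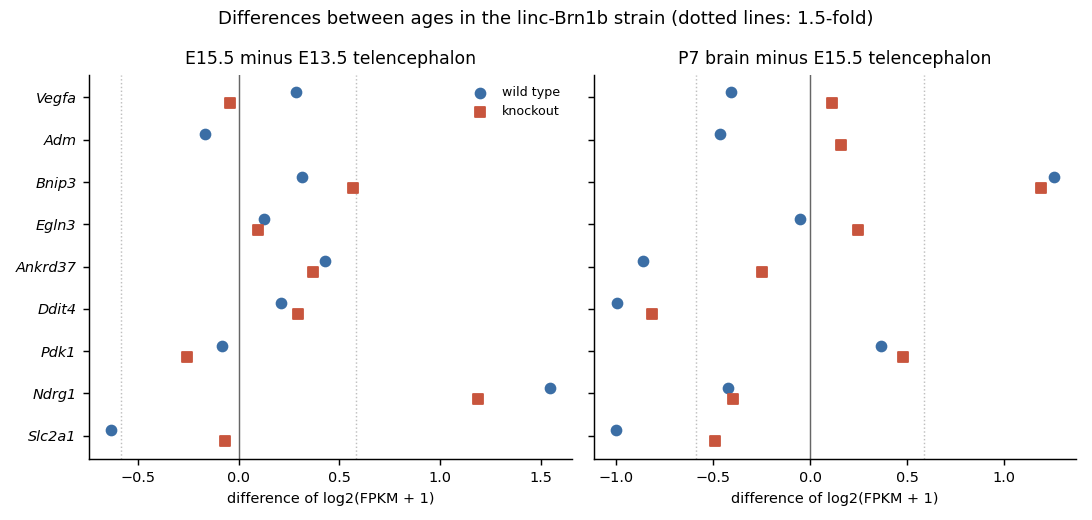
Difference of log2(FPKM + 1) between ages (horizontal axis) of each of the 9 genes in wild type (circles) and linc-Brn1b-/- (squares), with dotted lines at 1.5-fold. Ndrg1 stands apart on the left, at 1.55 and 1.19, and Bnip3 on the right, at 1.26 and 1.19, while Slc2a1, Ddit4 and Ankrd37 in wild type lie past the line for lower levels on the right.

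The 9 genes did not share one course over age and genotype. Over the 6 groups of the linc-Brn1b strain, Pearson's r of log2(FPKM + 1) between pairs of the 9 genes ran from -0.94 for Pdk1 and Ddit4 to 0.80 for Ddit4 and Ankrd37, with 0.80 for Slc2a1 and Ddit4 as well. The 6 values share age and table, so these coefficients only describe the order of the groups. Bnip3 and Slc2a1 ran in opposite directions, with r at -0.87. Bnip3 was lowest at E13.5 and highest at P7, and Slc2a1 had the reverse order in both genotypes. In knockout its E13.5 and E15.5 values were close, at 28.4 and 27.0 FPKM.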

How the data were processed

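RNA from 21 libraries was sequenced by the authors as paired-end reads from TruSeq libraries, aligned to mm9 with TopHat2, assembled with Cufflinks 2.0.2 (per the submitters' processing notes) and quantified with Cuffdiff2. The deposited values are FPKM, 1 pooled value per group, in 3 tables normalized separately. Differences were computed only within a table, and levels of different tables were only set side by side. The tables also hold the authors' fold changes, test statistics, p-values and q-values, none of which was used. There are 0 columns of values per library, so depth per sample and replicate error could not be computed and no test was run, and no SD, n or interval stands beside a value.

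Differences were computed as log2(FPKM + 1) for genes with at least 1 FPKM in 1 of both groups (Python 3.11.15, numpy 2.4.6, pandas 2.3.3), with 1.5-fold as the size counted and the 5th to 95th percentile of genes within 2-fold in mean level as the like-level range. The 9 genes and the other lists were chosen with earlier results of these data known. All 9 were named in every comparison, and of each further list at most the 3 genes with the largest absolute difference, beside counts, while HIF machinery was open to naming in full. Lox and the cell type markers named singly were picked after their values were seen. Erythroid markers Hba-a1 and Ahsp were not found by symbol. Alternatives were pseudocounts of 0.1 and 0, centring on the median of all genes, minimum levels of 5 FPKM and 0, and thresholds of a 25% difference and 2-fold. The computation was tested on simulated data in which only well-expressed genes were changed, by 2-fold up or down. It therefore does not bear on low genes such as Adm or on smaller differences. Figures were drawn with matplotlib 3.10.9. Gene positions are those of GENCODE on mm9, and promoter windows those of RefSeq on GRCm38.p6.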

Additional observations from a re-analysis of the deposited data

Results flagged for a closer look

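The genotype difference of Slc2a1 in the linc-Brn1b strain had opposite signs at 2 ages. On the log2(FPKM + 1) scale it was -0.63 at E13.5 (44.4 FPKM in wild type, 28.4 FPKM in knockout) and 0.45 at P7 (13.7 and 19.0 FPKM), 1.08 apart, with both values past a 25% difference, the size asked of each. With 1 pooled value per group the difference between the ages was not tested. The E13.5 value was inside the range of genes of like level and the P7 value above it. Telencephalon was sampled at E13.5 and whole brain at P7, and the genotype that held Y-linked RNA was wild type at E13.5 and knockout at P7, so age, dissected tissue and sex cannot be told apart. A change of sign was not particular to Slc2a1, although the others had at least 1 value short of the size asked. Among them were Adm (-0.53 at E13.5, 0.30 at P7) and Ankrd37 (-0.32 at E15.5, 0.30 at P7). Without a pseudocount Adm was at -0.98 at E13.5 and 0.64 at P7.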

How the results depend on the processing

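Of 45 alternative values of the median difference of the 9 genes, 43 kept their sign and moved by less than 0.1 (log2 scale). The median turned to 0.0125 at E13.5 and to -0.14 for P7 against E15.5 in knockout when at least 5 FPKM was asked, which leaves 6 of the 9 genes in each. Of 63 alternative counts of genes past 1.5-fold, 43 stayed within 1.5 times the reported count; thresholds of a 25% difference and of 2-fold were tried beside 1.5-fold. The share of all genes compared that passed under the same setting is given in parentheses. In lung the count was 1 with a pseudocount of 0.1 (4.62%) and 1 with none (4.88%), Adm at 0.67 and 0.70. It was 2 there at 25% (8.01%). At E13.5 it was 2 with a pseudocount of 0.1 (10.8%), with none (11.3%) and with centring (7.9%), Adm beside Slc2a1. At that age it was 3 at 25% (22.9%) and 0 at 2-fold (2.15%). At E15.5 it was 1 without a pseudocount (0.909%), Adm at -0.61. At P7 it was 1 without a pseudocount (9.07%), Adm at 0.64, and 1 at 25% (19.3%), Slc2a1. For E15.5 against E13.5 it was 1 at 2-fold in wild type (4.19%). In knockout it was 2 with a pseudocount of 0.1 (24.4%), with none (25.1%) and with centring (18.4%), Bnip3 beside Ndrg1. At 25% it was 3 (43.2%). For P7 against E15.5 in wild type it was 8 at 25% (72.5%) and 2 at 2-fold (26.6%). In knockout these were 5 (73%) and 1 (28.7%). No paired analysis was possible because the tables hold no values per library, and for the same reason no library could be left out.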
